A study of Sus scrofa with 599 samples.

Results

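Adipose tissues (ATs) at different sites of the body store and release lipid under different conditions, and this comparison sets the greater omentum (GOM) against the retroperitoneal AT (RAD) of pigs in weight gain (WG). The members were chosen by their labels: 45 GOM and 39 RAD RNA-seq libraries, 84 of the 236 RNA-seq libraries of the series, and 46 GOM and 40 RAD Hi-C libraries, 86 of 240. All came from female Bama pigs that were about 2 years old and had been fed a high-fat diet for 22 weeks. Where named, the NC group are pigs kept on a normal diet, and the WL group are pigs that, after the same high-fat diet, spent a further 12 weeks under strong caloric restriction. The mesenteric AT (MAD) and the subcutaneous upper-layer backfat (ULB) of the WG pigs are named for orientation only. Replicate numbers recur in both depots, but the sources used here do not say that a number marks a pig, so p-values measure the spread between libraries.

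As background, the greater omentum is a fold of peritoneum that hangs from the stomach, carries milky spots rich in immune cells and is covered on both faces by mesothelium, the flat epithelium of the body cavity. It drains into the portal vein. Retroperitoneal fat lies behind the peritoneum against the muscles of the back and around the kidney, outside the mesothelial lining. Fat depots keep a memory of the embryonic position in which their progenitors arose, and the HOX genes and other patterning transcription factors are the usual markers of that memory.

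In the RNA-seq libraries the estimated counts on protein-coding genes (PCGs) ranged from 3337098 to 20910121 in GOM (median 16385117) and from 10179169 to 22426788 in RAD (median 18463224). Adipocyte markers were abundant in every library: their summed level was between 5814 and 28448 TPM, a level scaled for gene length and library size, in GOM and between 16234 and 35313 TPM in RAD. GOM replicate 35 had the lowest count, and its median rank correlation with the other GOM libraries was 0.583, against 0.900 for the next lowest. GOM replicates 14, 15 and 38 were nearer in rank correlation to the RAD libraries than to the other GOM libraries, as were 1 GOM and 8 RAD Hi-C libraries to the opposite depot. In bulk tissue, fewer cells of a type and less RNA per cell cannot be told apart.

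A differentially expressed gene (DEG) was a PCG whose depots differed by more than 1.5-fold with an adjusted p under 0.05 (edgeR, quasi-likelihood test), and all log2 fold changes are RAD over GOM, so that a positive value is higher in RAD. A value in parentheses after a gene name is that gene's log2 fold change, with its SE where given. Of 13622 PCGs tested, 560 (4.11%) were higher in RAD and 965 (7.08%) were higher in GOM, 1525 (11.2%) in all. These shares are the background for the list counts below, and a list near them is not a result about its members. The median log2 fold change over all PCGs tested was -0.003. The large differences lay mostly on the omental side: 169 DEGs were more than 4-fold higher in GOM against 43 in RAD, and 52 were more than 16-fold higher in GOM against 5 in RAD. For 39 PCGs (0.286%) the lowest GOM library exceeded the highest RAD library, and for 9 (0.0661%) the lowest RAD library exceeded the highest GOM library. Without GOM replicate 35 the test gave 577 DEGs higher in RAD and 927 higher in GOM. Without replicates 14, 15, 35 and 38 it gave 606 and 942.

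Transcription factors of the visceral lineage were mostly higher in the omentum. Of 15 such factors tested, 13 were higher in GOM, 1 was higher in RAD and 1 was not called, and their median log2 fold change was -2.63. The lowest, median and highest levels of BARX1, a homeobox factor of the stomach mesenchyme, were 2.32, 6.59 and 38.3 TPM in GOM and 0, 0 and 0.124 TPM in RAD. The highest GOM value was that of replicate 35, and the next was 14.4 TPM. The depots did not overlap, and 33 of 39 RAD libraries were listed at 0. The log2 fold change was -8.20 ± 0.26 (edgeR, adjusted p = 4.5e-45), a size that rests on very few reads on the RAD side. GATA5, a zinc finger factor of the cardiac and visceral mesoderm, was at 1.79, 8.22 and 20.4 TPM in GOM and 0, 0 and 0.351 TPM in RAD, again without overlap. NKX3-2, which takes part in the patterning of the gut mesenchyme and spleen, was at 2.09, 4.94 and 28.5 TPM in GOM and did not exceed 0.331 TPM in any RAD library.

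The remaining visceral factors graded from near absence in RAD to modest differences. TCF21, a basic helix-loop-helix factor of the epicardium and visceral fat progenitors, was at 2.61, 6.73 and 26.7 TPM in GOM and 0, 0.371 and 0.852 TPM in RAD. HAND2, a heart and lateral mesoderm factor, was at 5.16, 12.5 and 39.4 TPM in GOM and 0.0895, 0.79 and 3.5 TPM in RAD, and the depots were again separate. ISL1, a LIM homeobox factor, had a log2 fold change of -5.01 ± 0.23. WT1, the Wilms tumour factor that marks mesothelium and visceral fat progenitors, differed less sharply: it was at 12.9, 40.2 and 182 TPM in GOM and 2.46, 7.21 and 17.6 TPM in RAD, with overlap between the depots and a log2 fold change of -2.63 ± 0.16 (edgeR, adjusted p = 7.8e-26). GATA6 (-2.04), FOXF1 (-1.24), MEIS1 (-1.10), MEIS2 (-0.95) and NR2F2 (-0.91) were also higher in GOM on the log2 scale, whereas NR2F1 (-0.09) was not called. TBX18, a T-box factor of the epicardium and of mural cells, was the exception, with a log2 fold change of 1.51 ± 0.10. A homeobox gene outside the list, NKX2-3, a factor of the gut mesenchyme and the spleen, did not exceed 0.165 TPM in RAD and was at 1.44, 2.9 and 11.8 TPM in GOM.

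**Figure D1:**
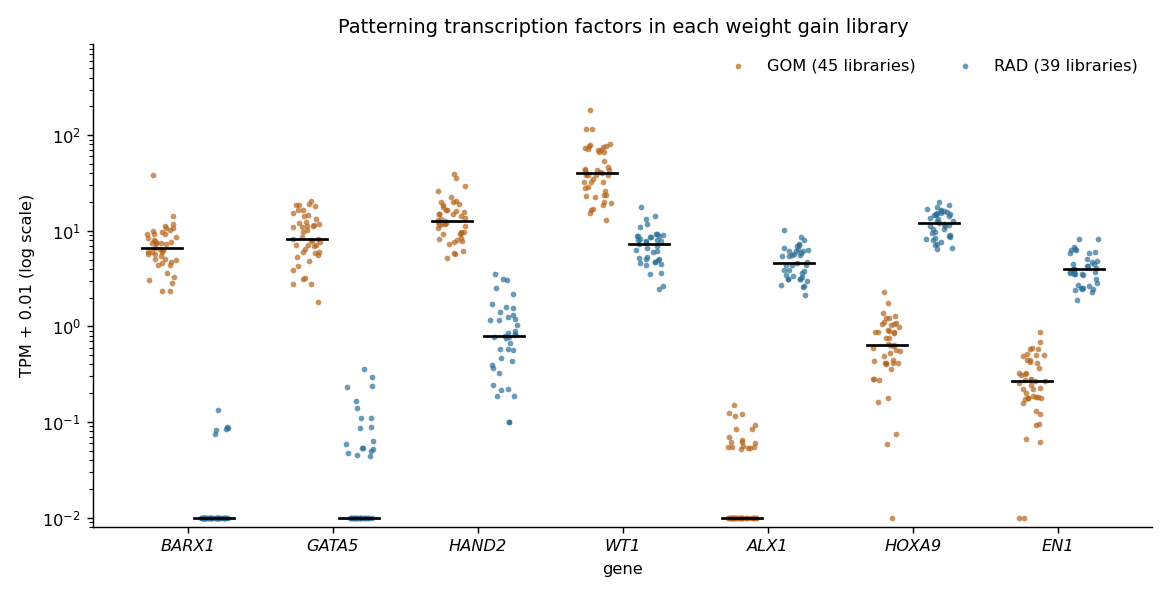
TPM (with 0.01 added, log scale) of 7 transcription factor genes in each of the 45 GOM and 39 RAD weight gain libraries; each point is a library and each bar is the median. BARX1, GATA5 and HAND2 are separated with GOM above, WT1 is higher in GOM with overlap, and ALX1, HOXA9 and EN1 are separated with RAD above.

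Patterning factors of the body wall were mostly higher in RAD. Of 16 factors of that list tested, 9 were higher in RAD, 2 were higher in GOM and 5 were not called (median log2 fold change 0.99). Without the filter on low values, when more of the list was tested, 16 were higher in RAD. EN1, an engrailed factor of the dermomyotome and dorsal dermis, was at 0, 0.258 and 0.856 TPM in GOM and 1.87, 3.95 and 8.25 TPM in RAD. The depots did not overlap, and the log2 fold change was 3.91 ± 0.17 (edgeR, adjusted p = 1.4e-36). ALX1, an aristaless-like homeobox factor named here for the size of its p-value, had the smallest adjusted p of the genes higher in RAD (edgeR, adjusted p = 2.6e-47): it was listed at 0 in 26 of 45 GOM libraries, reached at most 0.139 TPM in that depot and was at 2.12, 4.63 and 10.1 TPM in RAD.

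EMX2 (log2 fold change 3.42), IRX3 (2.35), SHOX2 (2.33), TBX5 (1.92), MSX2 (1.67), PRRX1 (1.33) and FOXC1 (0.64) were further factors of the list that were higher in RAD. SIX2, a homeobox factor best known from nephron progenitors, went the opposite way without overlap: it was at 1.19, 2.81 and 15.3 TPM in GOM and 0, 0.244 and 0.869 TPM in RAD. TBX1 was the other body wall factor higher in GOM (-2.22 ± 0.30). FGF10, a growth factor of limb, lung and fat development, was at 0, 0.881 and 2.21 TPM in GOM and 2.52, 9.79 and 27.4 TPM in RAD, which did not overlap, and its log2 fold change was 3.78 ± 0.17.

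The HOX genes differed by cluster and by position within the cluster. HOX genes are numbered by paralog group, and higher numbers mark more posterior body levels. In the HOXA cluster, HOXA2 (-2.42) was higher in GOM, HOXA3, HOXA5 and HOXA7 were not called, and HOXA9 and HOXA10 were higher in RAD. HOXA9 was at 0, 0.632 and 2.27 TPM in GOM and 6.47, 12.1 and 20.1 TPM in RAD (log2 fold change 4.18 ± 0.15). The only GOM library at 0 for HOXA9 was replicate 35. HOXA10 was at 0, 0.104 and 0.466 TPM in GOM and 2.12, 4.85 and 8.27 TPM in RAD (log2 fold change 5.17 ± 0.22). Both were separate between the depots.

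HOXC had a similar order: HOXC5 was higher in GOM (-0.68 ± 0.17), HOXC4 was not called (-0.51 ± 0.21), and HOXC6 (1.05 ± 0.29), HOXC8 (2.13 ± 0.20) and HOXC9 (3.54 ± 0.22) were higher in RAD. HOXB went in a single direction, with 6 of 7 genes higher in GOM, from HOXB2 (-0.64) to HOXB5 (-2.01), and HOXB7 (-0.33) below the fold threshold. The HOXB2 call was lost without GOM replicate 35. All 4 HOXD genes tested were higher in RAD, and of these HOXD8 did not overlap: it was at 4.21, 9.7 and 14.9 TPM in GOM and 23.1, 51.6 and 79.6 TPM in RAD. The medians of the clusters were 0.10 (HOXA), -0.94 (HOXB), 1.05 (HOXC) and 1.55 (HOXD), against -0.003 over all PCGs.

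**Figure D2:**
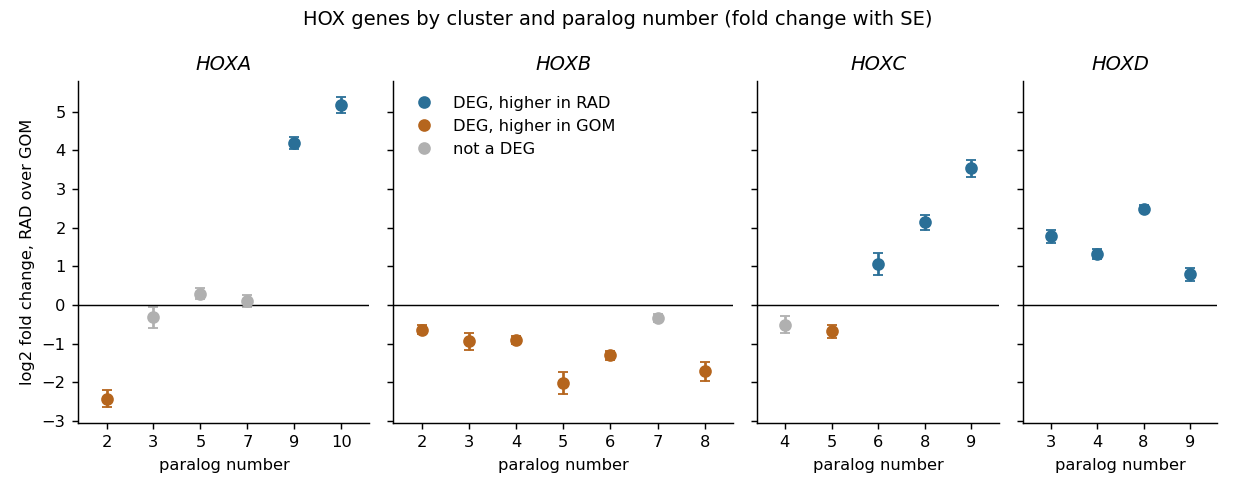
Log2 fold change of RAD over GOM (point, with its SE) for 22 of the HOX genes tested, by cluster and paralog number. In HOXA and HOXC the genes with low numbers lie below 0 or near it and those with the highest numbers far above it, at 5.17 for HOXA10 and 3.54 for HOXC9, while HOXB genes lie below 0 and HOXD genes above it.

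The other WG depots were read for the same factors, as medians. BARX1 was at 0.0336 TPM in MAD and at 0 TPM in ULB, and GATA5 at 0.116 and 0 TPM, so that of the 4 depots only GOM had a median above 1 TPM. WT1 was at 8.85 TPM in MAD, near its level of 7.21 TPM in RAD, and at 0.154 TPM in ULB. HAND2 was at 5.11 TPM in MAD, between 12.5 TPM in GOM and 0.79 TPM in RAD. EN1 was at 12.8 TPM in the subcutaneous ULB and 0.316 TPM in MAD, so that its medians were high in ULB and RAD and below 1 TPM in MAD and GOM. HOXA9 and HOXA10 were different again: their medians of 12.1 and 4.85 TPM in RAD compared with 1.23 and 0.0197 TPM in ULB, and ALX1 was at 0 TPM in ULB and 0 TPM in MAD. The differences from MAD and ULB were not tested here.

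Mesothelial genes were the second large group on the omental side. Of 12 tested, 9 were higher in GOM and 3 were not called, with a median log2 fold change of -3.34. WT1 and BNC1 are in this list and also among the 13 visceral lineage factors higher in GOM, so these groups are not separate. KRT8, a keratin of simple epithelia, was at 23.5, 111 and 584 TPM in GOM and 0.135, 1.64 and 8.95 TPM in RAD, without overlap. UPK1B, a uroplakin of mesothelium and urothelium, was at 0, 36.9 and 108 TPM in GOM and 0, 0.385 and 1.32 TPM in RAD. The only GOM library at 0 was replicate 35. BNC1, a basonuclin zinc finger factor, was at 1.21, 8.33 and 24.9 TPM in GOM and 0, 0 and 0.248 TPM in RAD, with 21 of 39 RAD libraries listed at 0 (log2 fold change -8.06 ± 0.31).

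KRT7 (-5.12 ± 0.28), PKHD1L1 (-5.52 ± 0.29) and CDH1, the epithelial cadherin (-4.05 ± 0.23), followed. CLDN1, a tight junction claudin, differed least among the genes called (-0.96 ± 0.21). KRT18 (0.54 ± 0.52), EFEMP1 (-0.10 ± 0.08) and PTGIS (-0.49 ± 0.07) did not pass both thresholds, and the summed level of the 14 mesothelial genes in the table overlapped between the depots, from 414 to 1790 TPM in GOM and from 277 to 637 TPM in RAD. Outside the list, 3 of the genes with the largest fold changes in GOM were SERPINE3, a serpin (-8.66 ± 0.35), CRB2, a crumbs cell polarity protein (-7.91 ± 0.28), and GPM6A, a membrane glycoprotein (-5.92 ± 0.28). CLDN3, an epithelial claudin, was at 3.87, 43.5 and 439 TPM in GOM and 0, 0.752 and 5.18 TPM in RAD.

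Retinoic acid and WNT signalling, which pattern the mesoderm and act on fat progenitors, differed in their enzymes, ligands and modulators. ALDH1A2, the enzyme that makes retinoic acid in mesothelium and lateral mesoderm, was at 35.3, 106 and 203 TPM in GOM and 11.7, 22.7 and 42 TPM in RAD (log2 fold change -2.13 ± 0.12). The cellular retinoic acid binding proteins were opposed: CRABP1 was higher in GOM (-3.13 ± 0.33) and CRABP2 was higher in RAD (2.85 ± 0.28). CYP26B1, which degrades retinoic acid, was higher in RAD (0.94 ± 0.24), as was the dehydrogenase ALDH1A1 (0.66 ± 0.19). In all, 3 of 14 genes of the retinoic acid list were higher in RAD and 5 in GOM (median -0.06).

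Of 17 WNT genes tested, 10 were higher in GOM and 3 in RAD (median log2 fold change -0.67). RSPO1, a secreted enhancer of WNT signalling, was at 7.45, 19.7 and 38.5 TPM in GOM and 0, 0.887 and 1.94 TPM in RAD, without overlap. Its receptor LGR5 was also higher in GOM (-5.73 ± 0.38), and so were RSPO3 (-1.88 ± 0.20) and the ligands WNT5A (-2.75 ± 0.17), WNT9A (-1.55 ± 0.13), WNT2B (-1.34 ± 0.14) and WNT5B (-1.01 ± 0.20). WNT10B (-0.67 ± 0.16), a ligand that holds back adipogenesis, WNT11 (-0.60 ± 0.12) and the antagonist DKK3 (-1.05 ± 0.11) completed the 10. The WNT11 call was lost without GOM replicate 35, and those of WNT10B and WNT11 with the PCG share of TPM as a covariate. The 3 genes higher in RAD were the ligand WNT2 (2.31 ± 0.23) and the frizzled-related antagonists SFRP1 (1.08 ± 0.12) and SFRP4. SFRP4 was at 2.73, 8.41 and 44.8 TPM in GOM and 9.08, 43 and 180.5 TPM in RAD, and the ranges overlapped.

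Among 16 BMP and TGF-beta genes 3 were higher in GOM and 1 in RAD (median -0.04). The 3 were the BMP antagonist GREM1, at 19.3, 47 and 132 TPM in GOM and 0.691, 4.59 and 18 TPM in RAD, BMP3, at 1.37, 11.6 and 37.4 TPM and 0, 0.26 and 0.548 TPM, and BMP7 (-2.03 ± 0.23). GREM1 and BMP3 did not overlap between the depots. BMP5 was the gene higher in RAD (1.5 ± 0.23), and BMP4, which commits progenitors to fat, was below the fold threshold (-0.55 ± 0.11). Without GOM replicate 35 the number higher in RAD was 2.

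Adipocyte genes tended to the RAD side by amounts far smaller than those of the patterning factors. Of 16 adipocyte identity genes tested, 6 were higher in RAD and 10 were not called (median 0.48). PPARG, the master regulator of fat cell differentiation, was at 77.2, 141 and 248 TPM in GOM and 100.3, 233 and 376 TPM in RAD. FABP4, the fatty acid binding protein of adipocytes, was at 2678, 9292 and 17908 TPM in GOM and 7757, 13533 and 24559 TPM in RAD (log2 fold change 0.68 ± 0.13), and LEP, which encodes leptin, was at 53, 375 and 1098 TPM and 189.5, 547 and 1109.5 TPM (log2 fold change 0.62 ± 0.16). The depots overlapped for all 3 genes. LPL (0.64), LIPE (0.63) and PLIN4 (0.59) were the other 3 on the log2 scale, and the PLIN4 call was lost without GOM replicate 35. ADIPOQ, which encodes adiponectin, was below the fold threshold (0.56 ± 0.14).

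Fatty acid synthesis genes differed little. Of 17 lipogenesis genes 1 was called, the desaturase SCD, which was at 89.3, 1421 and 7157 TPM in GOM and 266, 2647 and 13532 TPM in RAD (log2 fold change 0.86 ± 0.26). FASN, the fatty acid synthase, and ACACA (0.02 ± 0.13), which makes malonyl-CoA, were not called. Of 10 triglyceride synthesis genes 3 were higher in RAD: PCK1, which supplies glycerol phosphate in fat cells (1.67 ± 0.27), GPD1 (0.67 ± 0.18) and LPIN1 (0.65 ± 0.15). ANGPTL4, a fasting-induced inhibitor of lipoprotein lipase, was at 11.5, 46.4 and 123 TPM in GOM and 33.6, 135 and 349 TPM in RAD (1.71 ± 0.15), whereas the lipoprotein receptor VLDLR was higher in GOM (-0.60 ± 0.08). The calls of LPIN1 and VLDLR did not hold with the PCG share of TPM as a covariate.

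In lipolysis the adrenergic receptors were opposed. The stimulating receptor ADRB1 was higher in RAD, at 0.799, 2.89 and 15 TPM in GOM and 1.88, 6.66 and 18.5 TPM in RAD (1.40 ± 0.18). The inhibiting receptor ADRA2A was higher in GOM, at 0.753, 4.07 and 14.2 TPM and 0.262, 1.74 and 6.6 TPM (-1.12 ± 0.19). The cAMP-dependent kinase subunit PRKAR2B was higher in RAD (0.86 ± 0.11), G0S2, an inhibitor of adipose triglyceride lipase, was higher in GOM (-0.83 ± 0.28), and PNPLA2, that lipase, was not called (0.30 ± 0.22). The G0S2 call did not hold with that covariate either, under which 5 lipolysis genes in place of 3 were higher in RAD.

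Of 12 fatty acid oxidation genes only the carnitine carrier SLC25A20 was called (0.61 ± 0.11), and that call was lost without GOM replicate 35. None of 12 mitochondria-encoded, 57 nuclear respiratory chain and 48 cytosolic ribosomal protein genes was called by edgeR or DESeq2, with medians of 0.12, 0.13 and -0.06. An unadjusted p below 0.05 was found for 0, 10 and 2 of them, and the 10 respiratory chain genes all leaned to RAD. Of these 10, 4 also had an adjusted p below 0.05 (edgeR) and stayed under 1.5-fold. Of 12 insulin signalling genes 2 were called, where 11.2% of all PCGs tested were, and the list median was -0.005. The 2 were IRS2 (0.77 ± 0.13) and AKT2 (0.73 ± 0.09), both higher in RAD. No IGF axis gene of 8 was called by edgeR or DESeq2. An unadjusted p below 0.05 was found for 3, of which 2 had an adjusted p below 0.05 (edgeR) and stayed under 1.5-fold. By edgeR 1 IGF axis gene was higher in RAD without GOM replicate 35, and also with the PCG share of TPM as a covariate. Among 11 thermogenic genes UCP3 (1.12 ± 0.14) and the creatine transporter SLC6A8 (0.91 ± 0.20) were higher in RAD, and TMEM26 (-0.75 ± 0.14) and TBX1 were higher in GOM.

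The secreted and hormone-related genes were divided. Of 13 adipokine genes 4 were higher in RAD, among them LEP, ANGPTL4 and APLN (1.06), and 4 in GOM (GREM1, FNDC5 at -1.98, LCN2 at -1.61 and RARRES2, which encodes chemerin, at -0.70). The RARRES2 call was lost without GOM replicate 35 and with the PCG share of TPM as a covariate. HSD11B1, the enzyme that regenerates active glucocorticoid inside cells, was at 18.2, 127 and 229 TPM in GOM and 27.9, 45 and 79.8 TPM in RAD (-1.31 ± 0.11). The progesterone receptor PGR was higher in RAD (1.00 ± 0.11), and the oestrogen receptor ESR1 (0.08 ± 0.11) and the glucocorticoid receptor NR3C1 (0.16 ± 0.07) were not called. These were among 9 steroid hormone genes tested.

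Fibrillar collagens were mostly higher in RAD. The list of fibrillar and type VI collagens also held the fibril-associated COL12A1 and COL14A1. Of its 14 genes, 8 were higher in RAD, 2 were higher in GOM and 4 were not called (median 0.65). COL1A1 was at 17.9, 103 and 841 TPM in GOM and 36.9, 253 and 2076 TPM in RAD (1.72 ± 0.31), COL3A1 at 138, 1382 and 2726 TPM and 958, 2834 and 6692 TPM (1.21 ± 0.15), and both overlapped. The 2 collagens higher in GOM were the fibril-associated COL12A1 (-0.97 ± 0.11) and COL6A5 of type VI (-1.01 ± 0.19). MMP2 (1.08 ± 0.17) and MMP19 (1.43 ± 0.16) were higher in RAD. MMP27 was among the largest fold changes in RAD, at 0, 2.36 and 13.6 TPM in GOM and 11.9, 32.2 and 73.2 TPM in RAD (3.47 ± 0.25). In the basement membrane COL4A6 (-2.07 ± 0.17) and LAMA3 (-1.22 ± 0.12) were higher in GOM, and COL4A1 (0.59 ± 0.12) and NID2 (0.70 ± 0.14) were higher in RAD, the former not with the PCG share of TPM as a covariate.

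Progenitor genes differed little. Of 12 tested, only DPP4, a marker of interstitial progenitors, was called, and it was higher in GOM (-0.92 ± 0.12), whereas PDGFRA (-0.55 ± 0.11) was below the fold threshold and CD34 (-0.18 ± 0.11) was not called. Without GOM replicates 14, 15, 35 and 38, 2 were higher in GOM and 1 in RAD.

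Of 19 endothelial genes 5 were higher in GOM and 1 in RAD. The 5 were the lymphatic regulator PROX1 (-1.23 ± 0.31), the receptor FLT4 (-1.74 ± 0.20), LYVE1 (-1.11 ± 0.17), PDPN (-1.26 ± 0.22) and the chemokine CCL21 (-2.06 ± 0.45), all known from lymphatic endothelium, of which LYVE1 is also made by macrophages and PDPN by mesothelium. Of the blood vessel genes ROBO4 was higher in RAD (0.72 ± 0.19), a call lost with the PCG share of TPM as a covariate, and PECAM1 (0.32 ± 0.06) and CDH5 (0.11 ± 0.15) did not pass. Among 11 smooth muscle genes DES (-1.55 ± 0.17) and LMOD1 (-0.93 ± 0.12) were higher in GOM, and ACTA2 (0.34 ± 0.15) and MYH11 (0.26 ± 0.21) were not called.

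Most T cell genes were higher in GOM. Of 16 T cell genes tested, 12 were higher in GOM and 4 were not called (median -0.65). CD3E, a chain of the T cell receptor complex, was at 0, 7.32 and 24.5 TPM in GOM and 1.44, 3.93 and 11.8 TPM in RAD (-0.83 ± 0.17), and IL7R, the interleukin receptor of resting T cells, at 3.82, 26.3 and 69.9 TPM and 5.48, 14.3 and 31.7 TPM (-0.83 ± 0.14). CD247 was called at -2.07 ± 0.42, but 1 library decided that value: GOM replicate 35 had 4501 TPM, and without it the log2 fold change was -0.02 (edgeR, adjusted p = 0.926). The number of T cell genes called was 12 without that library as well, but CD247 was no longer one of them. The members called were therefore not the same. The number was also 12 without replicates 14, 15, 35 and 38.

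JCHAIN, the joining chain of secreted antibodies, was at 12.8, 79 and 717 TPM in GOM and 7.61, 16.9 and 50.5 TPM in RAD (-2.65 ± 0.24), and MZB1 (-1.21 ± 0.24) and FCRL3 (-0.83 ± 0.16) were also higher among 9 B cell and plasma cell genes, whereas CD79A was not called (-0.08 ± 0.11). GZMK (-0.78 ± 0.20), GZMH (-0.65 ± 0.20) and EOMES (-0.95 ± 0.21) were the 3 of 13 cytotoxic lymphocyte genes higher in GOM, and the GZMH call was lost with the PCG share of TPM as a covariate. Without GOM replicates 14, 15, 35 and 38 the number was 5. The summed level of the T cell genes was between 81.8 and 4527 TPM in GOM, with a median of 158, and between 64.7 and 159 TPM in RAD, with a median of 102.2.

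Macrophage genes differed by subset. Of 14 resident macrophage genes 4 were higher in GOM (median -0.49): the scavenger receptor MARCO (-2.59 ± 0.31), the complement receptor VSIG4 (-0.91 ± 0.15), TIMD4, a marker of long-lived tissue macrophages (-0.96 ± 0.24), and LYVE1. CD163 (-0.51 ± 0.17) and MRC1 (-0.15 ± 0.13) did not pass. None of 15 lipid-associated macrophage genes, which rise in obese fat, was called by edgeR or DESeq2 (median 0.16). An unadjusted p below 0.05 was found for 3, LIPA (0.46 ± 0.12), DCSTAMP (0.63 ± 0.29) and MATK (-0.52 ± 0.14). Of these 3, 2 had an adjusted p below 0.05 (edgeR) and stayed under 1.5-fold. TREM2 was at 0.19 ± 0.21 and GPNMB at 0.32 ± 0.19. Of 6 MHC class II genes 0 were called by either tool and 0 had an unadjusted p below 0.05. Of 18 interferon-stimulated genes 1 was called, MX2 (0.65 ± 0.11).

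Complement was among the omental groups with large differences. Of 15 genes tested, 6 were higher in GOM and 2 in RAD (median -0.47). C3, the central component, was at 8.91, 236 and 1133 TPM in GOM and 12.5, 34.1 and 292 TPM in RAD (-2.30 ± 0.24). CFI, a protease that holds the pathway in check, was at 1.42, 117 and 652 TPM and 5.33, 12 and 35.2 TPM (-3.09 ± 0.23), and CFB, of the alternative pathway, was at 0.332, 39.7 and 157 TPM and 0.396, 2.58 and 28.5 TPM (-2.87 ± 0.30). C4A (-2.50 ± 0.22), C2 (-0.66 ± 0.13) and the inhibitor SERPING1 (-0.61 ± 0.15) completed the omental genes, and the terminal components C5 (0.71 ± 0.19) and C9 (1.6 ± 0.26) were the 2 higher in RAD. CFD, which encodes adipsin, was not called (-0.32 ± 0.14), nor was C1QB (-0.50 ± 0.14), which macrophages make.

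**Figure D3:**
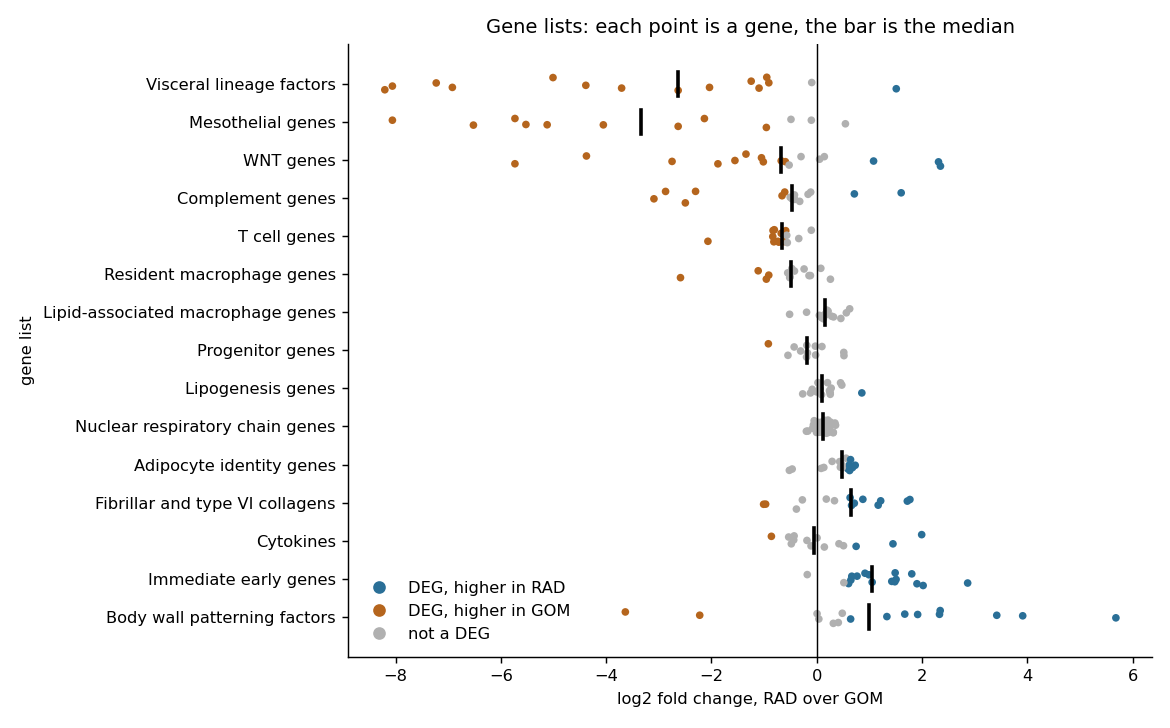
Log2 fold change of RAD over GOM for the tested genes of 15 lists; each point is a gene, coloured where it is a DEG, and the black bar is the median of the list. The medians run from -3.34 for mesothelial genes and -2.63 for visceral lineage factors to 1.05 for immediate early genes, and nuclear respiratory chain genes have no DEG.

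Immediate early genes, which respond rapidly to growth factors and stress, were mostly higher in RAD. Of 17 tested, 15 were higher in RAD and 2 were not called, with a median of 1.05. FOS was at 66.4, 191 and 545 TPM in GOM and 272, 743 and 1471 TPM in RAD (1.90 ± 0.15), and FOSB at 2.59, 17.7 and 114 TPM and 27.3, 141 and 481 TPM (2.87 ± 0.24). The ranges of both genes overlapped. EGR1 (1.51 ± 0.32), NR4A1 (1.81 ± 0.29), NR4A3 (2.02 ± 0.23) and JUNB (1.43 ± 0.15) went with them, and KLF2 (-0.18 ± 0.16) and KLF6 (0.52 ± 0.08) did not pass. The count was 13 with the PCG share of TPM as a covariate.

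Some cytokine and chemokine genes were higher in RAD too. IL6 was at 3.14, 12.9 and 40.9 TPM in GOM and 12.8, 48.4 and 207 TPM in RAD (1.99 ± 0.18), and CXCL2, a neutrophil chemokine, had a median of 37 TPM in GOM and 135 TPM in RAD (2.02 ± 0.15). IL1A (1.45 ± 0.17), LIF (0.75 ± 0.18), CCL2 (1.13 ± 0.18), CCL3L1 (1.07 ± 0.23) and CCL4 (1.44 ± 0.18) were also higher in RAD, whereas IL16 (-0.86 ± 0.08), CX3CR1 (-0.73 ± 0.21) and CCL21 were higher in GOM. These were 3 of 14 cytokines and 4 of 22 chemokines and receptors in RAD, against 1 and 2 in GOM, so that most genes of both lists were not called. Of 17 circadian clock genes 2 were called, where 11.2% of all PCGs tested were. Among them was NFIL3 (1.10 ± 0.13), and PER1 (-0.10 ± 0.21) and NR1D1 (-0.65 ± 0.42) were not called. The number higher in GOM was 1, and 4 with the PCG share of TPM as a covariate. Of 10 heat shock genes HSPH1 (0.72 ± 0.14) and DNAJB1 (0.75 ± 0.13) were higher in RAD and HSPB1 (-0.66 ± 0.24) in GOM, the last neither without GOM replicate 35 nor with the PCG share of TPM as a covariate. Among 13 proliferation genes TOP2A (-0.68 ± 0.16), CDK1 (-0.60 ± 0.17) and CCNB1 (-0.63 ± 0.17) were higher in GOM and CCNB2 (1.02 ± 0.20) in RAD. The number higher in GOM lay between 0 and 5 over the alternatives, with 5 without GOM replicate 35.

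Genes that mark neighbouring tissues were read as well. LRP2, a receptor of the kidney tubule and of other epithelia, was the kidney gene that passed the filter, and it was at 0.461, 20.2 and 76.9 TPM in GOM and 0.0359, 0.233 and 55.1 TPM in RAD (-3.27 ± 0.47). The summed level of the 10 kidney genes in the table had a median of 21.1 TPM in GOM and 0.76 TPM in RAD. Its highest value was 77.4 TPM in GOM and 142.5 TPM in RAD, and a part of kidney tissue in single libraries was not tested. No pancreas gene passed the filter, and over the alternatives up to 2 were higher in RAD. Of skeletal muscle (3 tested), adrenal cortex (2), adrenal medulla (1) and erythroid (4) genes none was called by edgeR or DESeq2, and 2 of them, 1 of muscle and 1 of adrenal cortex, had an unadjusted p below 0.05. Without GOM replicates 14, 15, 35 and 38, 1 skeletal muscle gene was higher in GOM. Without the filter on low values 1 skeletal muscle and 1 adrenal cortex gene were higher in RAD, and 1 skeletal muscle and 3 adrenal medulla and sympathetic genes in GOM. Of 6 liver genes 4 were higher in RAD, with ALB, which encodes albumin, at 0.169, 7.93 and 823 TPM in GOM and 3.19, 30.1 and 2035 TPM in RAD (2.15 ± 0.58). The call of TF, another of the 4, was lost without GOM replicate 35. The ranges of ALB overlapped widely, the summed level of the 11 liver genes was between 108 and 1727 TPM in GOM and between 112 and 3264 TPM in RAD, and the part of other tissue in this difference was not tested.

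In the Hi-C data, the A-B index of a 20-kb bin states how much more the bin contacts the open A compartment than the closed B compartment, and a positive value places the bin in A. The deposited index carries no contact counts, so its precision was read from the spread between libraries. The Hi-C methods of the paper describe nuclei taken from the layer with adipocytes, a step not described for RNA. Index and expression may therefore come from different mixes of cells, which was not tested. The median SD between libraries over 113298 bins was 0.471 in GOM and 0.498 in RAD, and the median difference between the depots was 0.0017. At an adjusted p below 0.05 (limma) 56.8% of bins differed. An A/B switch was a bin in A in more than 80% of the libraries of a depot and in B in more than 80% of those of the other. There were 137 bins (0.121%, 2.74 Mb) in A in RAD and B in GOM, and 216 (0.191%, 4.32 Mb) in A in GOM and B in RAD. An A/B variable bin kept its compartment in more than 80% of both depots but differed by more than 0.75 in index (limma, adjusted p below 0.05): 3999 bins (3.53%) were higher in RAD and 5051 (4.46%) in GOM. Frequency shifts, from at most 30% to at least 70% of libraries in A, were found in 552 bins towards RAD and 582 towards GOM. The 8 RAD Hi-C libraries nearer to GOM stayed in every setting, and a switch needs more than 80% of the 40 RAD libraries. The effect of these 8 libraries on the switches and the other classes was not tested.

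Adjacent switched bins formed 82 runs with A in RAD and 116 with A in GOM. The longest of the former was chr9:43280001-43520000 (Sscrofa11.1), 12 bins without the start of a placed PCG, with a mean index difference of 1.36. The next, chr5:64920001-65140000, held NTF3, a neurotrophin: its start bin was at -0.57 ± 0.53 in GOM and 0.91 ± 0.52 in RAD (mean and SD), and its expression was higher in RAD (log2 fold change 1.73 ± 0.21). The run at chr12:39460001-39640000 held the chemokine genes CCL3L1, CCL4, CCL14 and CCL16. The bin of CCL4 had a lowest, median and highest index of -2.82, -0.83 and 0.46 in GOM and -0.87, 0.86 and 2.04 in RAD and lay in A in 13% of GOM and 82.5% of RAD libraries. CCL4 and CCL3L1 were DEGs higher in RAD, and CCL14 (-0.28 ± 0.26) and CCL16 (0.54 ± 0.26) were not called. CCL3L1 and CCL4 share a bin and so an index, as do CCL14 and CCL16. The remaining runs of the 5 longest, chr9:43000001-43080000 and chr5:1580001-1640000, held no placed start.

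With A in GOM the longest run was chr4:82080001-82300000, 11 bins around DPT, which encodes the matrix protein dermatopontin. Its bin was at 0.44 ± 0.39 in GOM and -0.69 ± 0.44 in RAD, and DPT was higher in GOM (-0.83 ± 0.14). LRP2 lay in the run chr15:75660001-75760000: its bin lay in A in 100% of GOM and 12.5% of RAD libraries, with an index difference of -1.56 ± 0.09 (limma, adjusted p = 7.9e-27). The runs chr7:60320001-60520000, chr4:31640001-31840000 and chr8:121080001-121180000 held no placed start. Among switched genes outside these runs were CDH1, the epithelial cadherin, at 0.72 ± 0.53 in GOM and -0.77 ± 0.52 in RAD, and SV2B, a synaptic vesicle protein, with an index difference of -1.53 ± 0.09 and a log2 fold change of -4.0 ± 0.22.

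Of the DEGs that started in switched bins, all but 1 were higher in the depot in which the bin was in A. Of 11 PCGs tested that started in bins with A in RAD, 5 were DEGs higher in RAD (45.5%), where 4.34% of all 10416 tested and placed PCGs were. Those 5 were CCL4, CCL3L1, NTF3, TSPAN12 (0.78) and LSMEM1 (0.81). Of 9 in bins with A in GOM, 6 were higher in GOM (66.7%, against 7.06% of all placed): CDH1, SV2B, LRP2, DPT, WDR17 (-0.73) and MTUS1 (-0.74). PON1, a paraoxonase, was the exception: its bin was in A in 80.4% of GOM and 10% of RAD libraries, and its expression was higher in RAD (1.11 ± 0.30).

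The variable bins were unequal. Of 132 PCGs in bins with a higher index in GOM, 58 were higher in GOM (43.9%) and 2 in RAD. Of 480 in bins with a higher index in RAD, 47 were higher in RAD (9.79%) and 8 in GOM. Of 9784 in neither class, 4.06% were higher in RAD and 6.78% in GOM. At gene starts the index leaned to RAD over all, with a median difference of 0.15, so that 68% of all tested and placed PCGs had a higher index in RAD. The share was 73.5% of DEGs higher in RAD and 35% of DEGs higher in GOM. Across genes the rank correlation of the index difference with the log2 fold change was 0.233, a description over genes that share bins and libraries. The share in constant A also differed: 66.8% of DEGs higher in RAD and 67.9% of those higher in GOM were in A in more than 80% of both depots, and 84.7% of all placed PCGs.

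Large differences in the expression of patterning factors were found with and without a difference in compartmental status, and values in parentheses are from here the index difference of RAD minus GOM with its SE. The bin of WT1 (gene at chr2:28411467-28456007) had a lowest, median and highest index of -0.36, 1.84 and 3.65 in GOM and -1.28, -0.30 and 1.06 in RAD, with a difference of -2.08 ± 0.16 (limma, adjusted p = 8.8e-21). It lay in A in 97.8% of GOM and 27.5% of RAD libraries. EN1 (chr15:24402605-24408377) was its counterpart: its index was -0.95, -0.24 and 0.91 in GOM and 0.52, 1.29 and 2.41 in RAD, and the share of libraries in A was 30.4% and 100%. The ranges of GOM and RAD overlapped in both cases. BNC1 went from 100% of GOM libraries in A to 27.5% of RAD libraries (-1.08 ± 0.09).

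HAND2 (-1.79 ± 0.11), GATA6 (-1.24 ± 0.10), ISL1 (-1.22 ± 0.09), ALDH1A2 (-1.31 ± 0.12) and UPK1B (-0.89 ± 0.11) were A/B variable with a higher index in GOM, and BMP3 (-1.83 ± 0.15), GPM6A (-1.90 ± 0.11) and MEIS1 (-1.85 ± 0.11) were lower in RAD by more than 1.5 without meeting a class. In RAD, HOXD8 (0.92 ± 0.08), HOXD3 (0.95 ± 0.09), FOXC1 (1.13 ± 0.10), PPARG (1.08 ± 0.14), LEP (0.96 ± 0.10), CXCL2 (1.08 ± 0.13) and CCL2 (0.80 ± 0.14) were A/B variable with a higher index.

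By contrast HOXA9 (-0.03 ± 0.08), HOXA10 (0.03 ± 0.08) and HOXC9 (0.14 ± 0.09) were in A in all libraries of both depots. ALX1 (chr5:96761683-96785125) was in B in all libraries (-0.05 ± 0.16), although it did not overlap between the depots in expression. KRT8 (-0.11 ± 0.08) and CFB (0.05 ± 0.08) were in A throughout. Most genes in variable bins were not DEGs, and the DEGs there mostly went with the index, as the counts above show. In 4 genes given as examples a difference in index came with expression that went the opposite way or was not called. FOXF1 had a higher index in RAD (0.97 ± 0.13) and a higher expression in GOM. COL1A2 was in A in 91.3% of GOM and 20% of RAD libraries (-1.42 ± 0.11) while its expression was higher in RAD (log2 fold change 1.17 ± 0.14). CCL5 was in A in 28.3% of GOM and 100% of RAD libraries (1.72 ± 0.15) while its expression was not called (log2 fold change -0.03 ± 0.12). DCN, which encodes decorin, was in A in 93.5% of GOM and 20% of RAD libraries (-1.71 ± 0.17) with a log2 fold change of -0.31 ± 0.10. These examples were chosen after their values were seen.

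**Figure D4:**
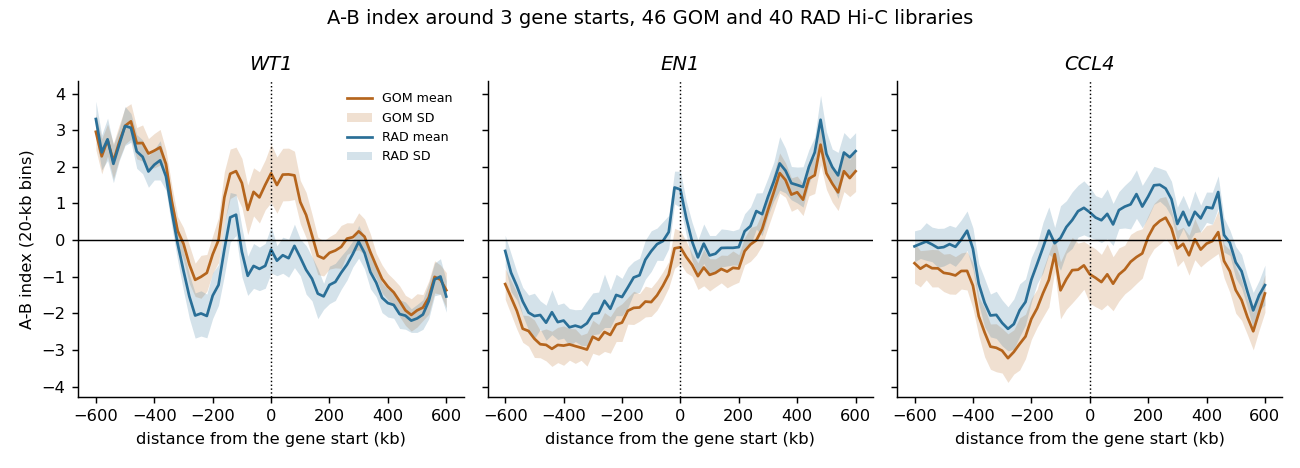
A-B index in 20-kb bins within 600 kb of the starts of WT1, EN1 and CCL4; the lines are the means of 46 GOM and 40 RAD Hi-C libraries and the bands are 1 SD. At the start the mean is 1.83 in GOM and -0.26 in RAD for WT1, -0.19 and 1.38 for EN1, and -0.93 and 0.76 for CCL4.

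Promoter sequence was set beside these results, from 250 bases before to 50 bases after each gene start in RefSeq (Sscrofa11.1), printed on the strand of the gene. Of 21280 PCGs in the table, 13567 were matched to RefSeq by symbol. The windows of 5 genes are shown because they span the cases above: WT1, BNC1 and EN1, whose starts changed index with expression, CCL4, in a switched run, and C3, of the complement group. They were chosen after their values were seen, and capitals mark each CG, which reads the same on both strands. The windows lie at chr2:28411217-28411516 (plus strand), chr7:51650929-51651228 (plus), chr15:24408328-24408627 (minus), chr12:39480462-39480761 (minus) and chr2:72431220-72431519 (plus).
WT1: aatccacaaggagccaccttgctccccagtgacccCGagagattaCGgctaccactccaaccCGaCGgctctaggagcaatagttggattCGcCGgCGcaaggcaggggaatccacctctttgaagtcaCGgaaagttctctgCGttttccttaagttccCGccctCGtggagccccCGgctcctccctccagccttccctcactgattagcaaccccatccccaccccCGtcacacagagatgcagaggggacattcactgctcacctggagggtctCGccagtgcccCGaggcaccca
BNC1: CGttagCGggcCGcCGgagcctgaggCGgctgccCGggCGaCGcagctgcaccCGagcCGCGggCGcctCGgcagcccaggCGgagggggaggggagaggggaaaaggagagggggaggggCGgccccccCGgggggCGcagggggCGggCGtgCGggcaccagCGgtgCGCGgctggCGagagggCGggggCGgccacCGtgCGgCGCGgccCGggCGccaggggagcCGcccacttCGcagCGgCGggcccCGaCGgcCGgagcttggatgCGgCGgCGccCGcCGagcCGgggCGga
EN1: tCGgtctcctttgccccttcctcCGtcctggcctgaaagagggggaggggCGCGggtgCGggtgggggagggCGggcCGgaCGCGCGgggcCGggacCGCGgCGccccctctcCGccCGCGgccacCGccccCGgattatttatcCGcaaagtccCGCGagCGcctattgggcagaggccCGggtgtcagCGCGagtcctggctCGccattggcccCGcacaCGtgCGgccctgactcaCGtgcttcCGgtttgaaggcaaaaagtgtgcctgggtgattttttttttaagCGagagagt
CCL4: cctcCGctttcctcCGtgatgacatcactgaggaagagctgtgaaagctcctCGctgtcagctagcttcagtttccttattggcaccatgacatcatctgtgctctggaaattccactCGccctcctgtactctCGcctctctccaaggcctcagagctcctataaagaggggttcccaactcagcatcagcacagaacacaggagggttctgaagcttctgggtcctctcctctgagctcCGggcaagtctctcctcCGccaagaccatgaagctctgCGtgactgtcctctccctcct
C3: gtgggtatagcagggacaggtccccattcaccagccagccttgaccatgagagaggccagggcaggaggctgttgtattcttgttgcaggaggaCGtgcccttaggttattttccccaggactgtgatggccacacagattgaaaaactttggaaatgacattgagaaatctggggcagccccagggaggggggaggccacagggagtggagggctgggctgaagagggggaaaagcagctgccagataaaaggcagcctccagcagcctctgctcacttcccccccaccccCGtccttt

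The windows held 15 CG in WT1, 46 in BNC1, 33 in EN1, 8 in CCL4 and 2 in C3. At least 15 CG were found in 61% of the windows of all placed PCGs and 67.3% of those tested, and in 48.7% of DEGs higher in RAD and 56.1% of DEGs higher in GOM. Among 41 called HOX and lineage factors the share was 61%. Of 14 complement genes 0 reached it, and their median was 5.5 CG. The letters AGATAA, the core bound by GATA factors, were searched on both strands and were found in 6.93% of the windows of tested PCGs, 9.91% of DEGs higher in RAD and 8.8% of DEGs higher in GOM. A match is a description of letters only.

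The same depots in the other nutritional groups were separate libraries. In WL (10 GOM and 10 RAD libraries) 1710 of 14018 PCGs tested (12.2%) were DEGs between RAD and GOM, and 1061 DEGs had the same direction in WG and WL, 69.6% of the WG DEGs and 62% of the WL DEGs. Of the 1487 WG DEGs tested in WL, 1441 had the same sign (96.9%). In NC (9 GOM and 12 RAD libraries) 2744 of 14081 (19.5%) were DEGs, 964 were shared in direction with WG (63.2% of WG and 35.1% of NC DEGs), and 1325 of 1387 tested had the same sign (95.5%). These groups differ in size, so their numbers of DEGs are given side by side without a comparison.

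The patterning factors named next were set apart in all 3 groups. BARX1 had a log2 fold change of -7.96 ± 0.37 in WL and -8.30 ± 0.56 in NC, WT1 of -3.42 ± 0.32 and -3.28 ± 0.24, and ALX1 of 7.84 ± 0.40 and 6.52 ± 0.45. EN1 was at 3.66 ± 0.33 in WL and 5.04 ± 0.44 in NC and HOXA9 at 4.77 ± 0.30 and 5.01 ± 0.29. C3 was at -3.55 ± 0.58 and -2.75 ± 0.62, and CD3E at -1.11 ± 0.26 and -1.13 ± 0.25. The immediate early gene FOSB was at 3.37 ± 0.30 in WL and 1.94 ± 0.39 in NC, and IL6 at 1.82 ± 0.27 and 0.79 ± 0.37, the latter not past the threshold in NC.

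Whether the difference between the depots was itself different was tested by an interaction. Between WG and WL 10 of 14127 PCGs (0.0708%) had an adjusted p below 0.05 (edgeR), 8 of them with a symbol, and without GOM replicate 35 the number was 15. SLC16A12, a creatine transporter, was at a median of 1.23 TPM in GOM and 8.14 TPM in RAD in WG, where the depots did not overlap (log2 fold change 2.79 ± 0.12), and at 1.69 and 3.3 TPM in WL (log2 fold change 0.68 ± 0.33). The interaction was 2.10 (edgeR, adjusted p = 2.9e-06), and the median of RAD in NC was 3.26 TPM. LMOD1, a leiomodin of smooth muscle, was higher in GOM in WG and not called in WL (interaction -1.23), and CLDN1 was lower in RAD by less in WG (log2 fold change -0.96 ± 0.21) than in WL (-3.08 ± 0.45). Between WG and NC 254 of 14439 PCGs (1.76%) passed, a number that was 558 without GOM replicate 35 and 1586 with the PCG share of TPM as a covariate.

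**Figure D5:**
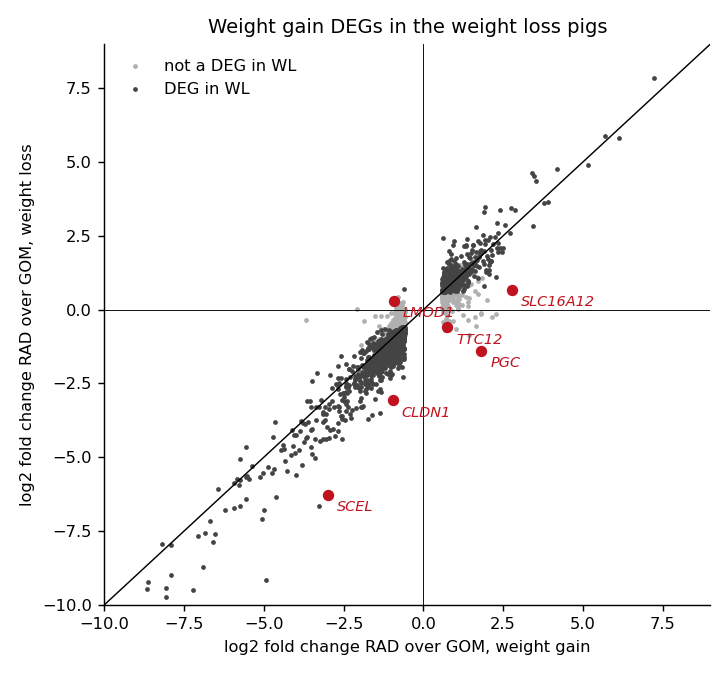
Log2 fold change of RAD over GOM in the WG pigs (x axis) and in the WL pigs (y axis) for the WG DEGs tested in both; each point is a gene, dark where it is also a DEG in WL, and the diagonal marks equal values. The same sign was seen for 1441 of 1487 genes, and the labelled genes passed the interaction test.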

How the data were processed

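RNA was sequenced after ribosomal RNA depletion with a stranded kit, and the authors estimated transcript abundance with kallisto 0.43.0 against Sscrofa11.1. The deposited tables hold estimated counts per PCG and TPM, which sums over all transcript classes, so that PCGs hold part of each library. For Hi-C, the authors kept contacts with a mapping quality of at least 30, removed sex chromosomes, normalised between samples, computed compartments at 100 kb and deposited an A-B index score per 20-kb bin.

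From these, estimated counts were rounded, a PCG was kept where 80% or more of the libraries of a depot exceeded 0.5 TPM, and depots were compared with edgeR 4.0.16 (TMM factors, quasi-likelihood test, Benjamini-Hochberg adjustment, R 4.3.3). Only WG GOM and WG RAD entered the main test. SE is the log2 fold change divided by the root of F. DESeq2 1.42.0 was the other tool. The index was tested per bin with limma 3.58.1. Both tests were checked on simulated data that had no outlier library and no correlation by replicate number, so the check does not cover those features. Interactions compared the RAD minus GOM difference of WG with that of WL or NC over the libraries of both groups.

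Members, lists and tests were chosen with earlier results of these data known. Named genes were the 12 with the largest fold change (mean TPM of at least 5) and the 10 with the smallest p in each direction, members of 54 lists, the 5 longest switched runs in each direction and genes in switched bins. The first 2 sets were drawn from DEGs with a symbol (1311 of 1525). Genes were placed by unique symbol in RefSeq. In each table, 9 columns that matched no sample in the labels were not used. The other alternatives were RLE factors, no filter, the shared replicate numbers with and without a block, the PCG share of TPM as a covariate, other thresholds, quantile normalisation of the index, and, chosen after seeing the data, leaving out GOM replicate 35 or GOM replicates 14, 15, 35 and 38. ChIP-seq data were not used here, and some genes are not reported here.

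Whether equal numbers pair libraries was checked by the correlation of deviations from the depot means. For expression 37 of 39 pairs were above 0.1, and the median was 0.62 against -0.054 for unequal numbers. For the A-B index 24 of 40 were above 0.1, and the median was 0.19 against 0.038. Equal numbers correlated more than unequal ones in expression, but this does not show that a number marks a pig. What else libraries of equal number share was not tested, and the labels do not state pairing. The main tests therefore left numbers unpaired, and the block on the number was an alternative.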

Additional observations from a re-analysis of the deposited data

Results flagged for a closer look

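The difference between RAD and GOM was not the same in WG and WL for 10 PCGs, by an interaction term over the libraries of both groups (edgeR, adjusted p below 0.05). The number was 15 without GOM replicate 35, and with the replicate number as a block it was 29. The interaction is given as the log2 difference of RAD over GOM in WG minus that in WL. It was 2.10 for SLC16A12, 1.34 for TTC12, 1.33 for GFRA3, a receptor of the GDNF family, 3.19 for PGC, which encodes pepsinogen C, 3.27 for SCEL, the epithelial protein sciellin, and 2.12 for CLDN1. It was -1.13 for NOX4, an oxidase that makes hydrogen peroxide, and -1.23 for LMOD1. The other two had no symbol. PGC was higher in RAD in WG (1.82) and had a log2 fold change of -1.41 in WL, which was not past the threshold. SCEL was higher in GOM in both groups (-2.99 in WG and -6.27 in WL). GFRA3 was not called in WG (0.04) and was higher in GOM in WL (-1.30). NOX4 was below the fold threshold in WG (-0.49) and not past the threshold in WL (0.64).

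Between WG and NC the interaction passed for 254 PCGs. Of the patterning factors above, HOXD8 and TBX18 were among them. Both were higher in RAD by less in WG (log2 fold change 2.49 and 1.51) than in NC (3.34 and 2.39). CRB2, a crumbs polarity protein, had a log2 fold change of -7.91 in WG and -4.05 in NC, an interaction of -3.88 (edgeR, adjusted p = 4.4e-05). FBXL8, an F-box protein, was not called in WG (-0.08) and was higher in RAD in NC (1.21), an interaction of -1.31 (edgeR, adjusted p = 1.3e-05). Other genes described above also passed. G0S2 and WNT5B were higher in GOM in WG (-0.83 and -1.01). In NC they had log2 fold changes of 1.75 and 0.72, not past the threshold. JCHAIN kept its sign, with -2.65 in WG and -4.55 in NC.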

How the results depend on the processing

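Counts of DEGs higher in RAD and in GOM stayed within 1.5 times of 560 and 965 under DESeq2 (548 and 995), RLE factors (536 and 1003), the PCG share covariate (586 and 978) and without GOM replicate 35 (577 and 927). They moved further without a filter on low values, to 989 and 1544 of 20913 PCGs tested. With the replicate number as a block, the 39 shared numbers gave 621 and 949 DEGs, and 92.4% of the 1525 DEGs were kept. Without the block the same libraries gave 581 and 973. The 40 shared numbers gave 4215 and 4888 A/B variable bins with the block and 4215 and 4887 without it, against 3999 and 5051 over all libraries. In expression 18 of 39 numbers correlated best with their own number and in the A-B index 0 of 40. This does not settle whether a number marks a pig. Under the block the interaction passed for 29 PCGs against WL and for 721 against NC, and the log2 fold change of TF, a liver gene, reversed to -0.035 (adjusted p = 0.960 against 0.050). CD247 reversed to 0.0022 with the PCG share covariate (adjusted p = 0.996). Without GOM replicate 35 the interaction with WL passed for 15. The interaction with NC passed for 1586 PCGs with that covariate and for 558 without GOM replicate 35. Switches numbered 487 and 582 with agreement over 70% and 8 and 19 over 90%. A/B variable bins numbered 10952 and 11695 at an index difference over 0.5, and frequency shifts 168 and 244 at 80% and 20%. The causes of these changes were not tested beyond what each setting itself alters. Calls lost without GOM replicate 35 were those of CD247, HOXB2, HSPB1, PLIN4, RARRES2, SLC25A20, TF and WNT11. Under the block 1 lipid-associated macrophage gene and 3 fatty acid oxidation genes were higher in RAD, against 0 and 1. The deposited index carries no contact counts, and genes near 0 TPM in a depot have fold changes that rest on few reads.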

Other observations

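FBP2 and SULT1B1, in none of the gene lists, were among the genes named for the size of their fold change. FBP2, the muscle-type fructose bisphosphatase, was at a lowest, median and highest level of 0.534, 10.2 and 37.5 TPM in GOM and 13.1, 59.3 and 164 TPM in RAD (log2 fold change 2.40 ± 0.20). SULT1B1, a sulfotransferase of thyroid hormone and phenols, was at 0.273, 2.07 and 6.76 TPM in GOM and 5.18, 13.6 and 26.7 TPM in RAD (log2 fold change 2.56 ± 0.17). The ranges overlapped for both genes.

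Compartment differences without a DEG were found among vascular genes, chosen after their values were seen. The Hi-C protocol names the layer with adipocytes, so the index of these genes may not come from the vascular cells that express them. The bin of KDR, a receptor of vascular endothelial growth factor, was in A in 100% of GOM and 55% of RAD libraries (index difference -0.90 ± 0.11), with a log2 fold change of 0.49 ± 0.08. The expression of KDR and ERG passed the adjusted p of edgeR's quasi-likelihood test, at 2.7e-07 and 4.1e-05, and stayed under 1.5-fold. The bins of ERG, an endothelial transcription factor (1.37 ± 0.14), and MYH11, a smooth muscle myosin (1.30 ± 0.14), were A/B variable with a higher index in RAD, with log2 fold changes of 0.45 ± 0.09 and 0.26 ± 0.21. PRDM16, a regulator of brown and beige fat, had a higher index in RAD (1.28 ± 0.13) and did not pass the filter on low expression.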
